A study of Mus musculus with 6 samples.

Results

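Phosphoethanolamine is a small phosphorylated amine at a branch point of membrane lipid metabolism. Ethanolamine kinases make it from ethanolamine, sphingosine-1-phosphate lyase releases it when it cleaves sphingosine-1-phosphate, and the CDP-ethanolamine route spends it on phosphatidylethanolamine, a major phospholipid of brain and myelin membranes. Etnppl, ethanolamine-phosphate phospho-lyase, breaks it down to acetaldehyde, ammonia and inorganic phosphate, and in brain its RNA is known mainly from astrocytes. Phosphatidylethanolamine can also be made in mitochondria, by decarboxylation of phosphatidylserine.

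The 9 genes described here encode enzymes that make or use phosphoethanolamine, together with the choline kinases and the mitochondrial decarboxylase that stand beside them. They are Etnppl, the ethanolamine kinases Etnk1 and Etnk2, the lyase Sgpl1, the CDP-ethanolamine-forming enzyme Pcyt2, the transferase Cept1, the choline kinases Chka and Chkb, and the phosphatidylserine decarboxylase Pisd. They were found by gene symbol among the 35275 genes of the deposited tables, and all 9 were among the 16137 genes with enough reads to be tested. Etnppl was chosen because its RNA was much lower in the mutant, so its values are given as a description with no test, and it was left out of every count of changed genes below.

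RNA was measured by bulk RNA-seq of poly(A) RNA from whole spinal cord of 3 Sox2 cKO mice and 3 Ctrl mice. Sox2 cKO mice carried mGfap-Cre, a Cre driven by the mouse Gfap promoter and active in most astrocytes of brain and spinal cord, with both alleles of Sox2 floxed (Sox2 fl/fl). The sources differ on the controls. The sample labels give mGfap-Cre with Sox2 +/+, the methods give Sox2 fl/fl littermates, and the series description allows either mGfap-Cre or Sox2 fl/fl, so an effect of the Cre transgene alone cannot be told apart from that of the deletion. The strain is given as C57BL/6, and the age as postnatal day 90 in one label and day 80 in the protocols. Each group held 2 female mice and 1 male, and the sex behind each library was not assigned here. The Ctrl libraries carry the numbers 2, 4 and 6, the Sox2 cKO libraries 1, 3 and 5, and values below are listed in this order.

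Depth lay between 21507911 and 28392184 counts a library. Reads on Sox2 itself numbered 443, 357 and 611 in Ctrl against 72, 79 and 79 in Sox2 cKO, lower in each Sox2 cKO library. The spinal cord position gene Hoxb8 had at least 5234 counts in each library, whereas the liver gene Alb had at most 2. Ctrl library 2 stood apart from the other Ctrl libraries, which differed from each other by 9.98 on the measure that follows. The chi-square per degree of freedom over all genes was 25.0 and 29.2 between it and Ctrl libraries 4 and 6, against 28.01, 14.7 and 10.8 between it and Sox2 cKO libraries 1, 3 and 5. Fold changes also followed the length of the gene. The median log2 fold change was 0.30 in the 3229 genes with the shortest counted length, up to 1708 bases, and -0.25 in the 3227 with the longest, from 4872 bases up, and the fold changes of the 9 genes and the counts of calls below are therefore also given with this trend removed. In bulk tissue, fewer cells of a type and less RNA per cell cannot be told apart.

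Etnppl (ENSMUSG00000019232) lies on the plus strand of chromosome 3 from 130617448 to 130637521 in mm10. Its RNA gave 724, 916 and 1287 counts in Ctrl and 217, 333 and 333 counts in Sox2 cKO. As CPM, counts scaled to library size with TMM factors, these were 32.5, 38.1 and 62.1 in Ctrl against 9.53, 11.4 and 12.6 in Sox2 cKO. The lowest Ctrl library thus lay well above the highest Sox2 cKO library, and the Ctrl libraries were the more uneven. The mean was 44.2 ± 15.8 CPM in Ctrl and 11.2 ± 1.53 in Sox2 cKO (SD, n = 3), so that 25.2% of the Ctrl level was left. The log2 fold change was -1.98 with a standard error of 0.22, and -2.06 with the length trend removed. Without Ctrl library 6, the highest, it was -1.66, and without Ctrl library 2 it was -2.16.

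The variation of Etnppl among Ctrl mice was wide for a gene of this table. The SD of its log2 CPM was 0.49 over the Ctrl libraries, where the median of all tested genes was 0.16 and 8.27% of them had a larger SD. Over the Sox2 cKO libraries it was 0.20, with 26.6% of tested genes more variable. Sgpl1, the other enzyme of the set that cleaves a phosphorylated substrate and touches phosphoethanolamine, was among the most even genes, with SDs of 0.03 and 0.01.

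Because the deleted gene encodes a transcription factor, the DNA just upstream of Etnppl was searched for the core letters of the HMG box motif, CAAAG and CAATG, on either strand. The window below covers 250 bases that end at the annotated start, chr3:130617198-130617447 on the plus strand, from the RefSeq promoter table of GRCm38.p6, with the match in capitals.

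Etnppl upstream: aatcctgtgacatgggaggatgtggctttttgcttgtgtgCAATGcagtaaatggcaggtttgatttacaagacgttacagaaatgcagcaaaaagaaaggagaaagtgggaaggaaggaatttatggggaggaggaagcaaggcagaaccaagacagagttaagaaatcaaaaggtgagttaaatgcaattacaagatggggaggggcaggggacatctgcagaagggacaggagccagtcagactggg

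This window held 1 CAATG and 0 CAAAG. A second start of Etnppl lies 127 bases downstream, and the window before it held 1 CAAAG and 0 CAATG. Such short letters are common, since CAATG was present in 32.6% and CAAAG in 48.6% of all 32851 windows of this length in the table, and 65.0% held at least one of them. Of the 9 genes, 8 matched the table, with 12 start sites, of which 9 held either motif. A match is a string of letters and no record of binding.

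**Figure D1:**
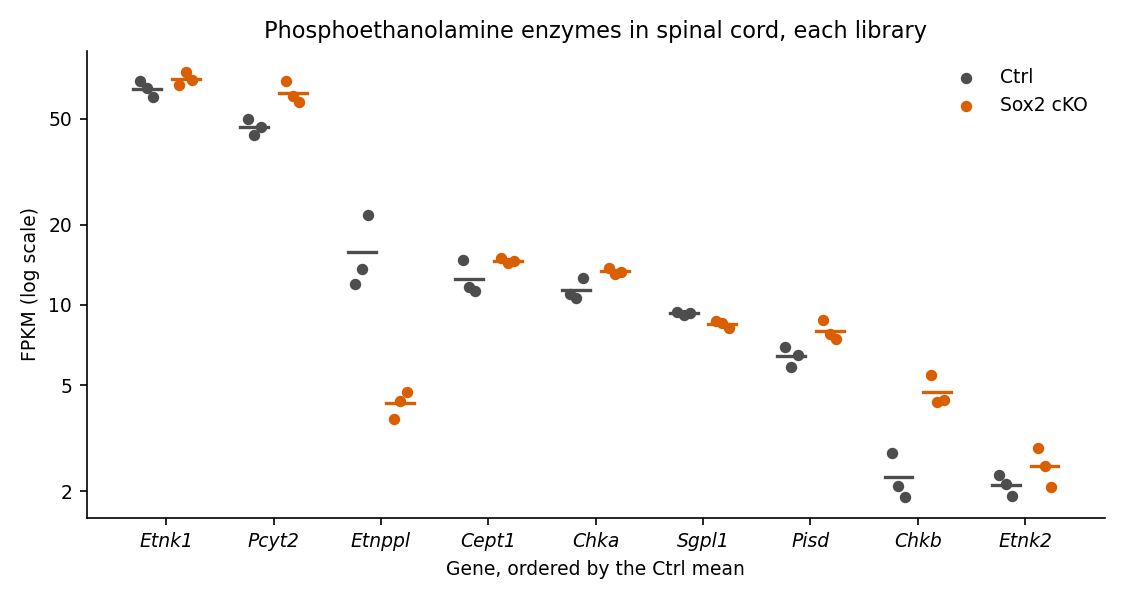
FPKM of the 9 genes in each library on a log axis, with Ctrl in grey and Sox2 cKO in orange, genes ordered by the Ctrl mean and horizontal bars at group means (n = 3). Etnppl lies between 11.96 and 21.7 FPKM in Ctrl and between 3.74 and 4.72 in Sox2 cKO.

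Levels of different genes were compared per length, as FPKM. The counted lengths differ from the merged exon lengths in GENCODE M21, and not by the same factor for each gene. For Etnppl they are 2697 against 8262 bases, for Pcyt2 1881 against 4346 and for Cept1 2814 against 3116. The order below, with the third place of Etnppl in Ctrl, therefore holds for the counted lengths only. In Ctrl spinal cord the order was Etnk1 at 64.6 ± 4.46, Pcyt2 at 46.5 ± 3.23, Etnppl at 15.7 ± 5.22, Cept1 at 12.5 ± 1.88, Chka at 11.4 ± 1.09, Sgpl1 at 9.28 ± 0.14, Pisd at 6.40 ± 0.55, Chkb at 2.26 ± 0.47 and Etnk2 at 2.11 ± 0.19 FPKM (SD, n = 3). The libraries of neighbours overlapped between Etnppl and Cept1, between Cept1 and Chka, and between Chkb and Etnk2. In Sox2 cKO spinal cord Etnppl stood eighth, at 4.27 ± 0.49 FPKM, and its libraries overlapped there with those of Chkb at 4.71 ± 0.63. The genes that make phosphoethanolamine and pass it on to the lipid, Etnk1 and Pcyt2, filled the first pair of places in each of the 6 libraries, although they changed places in Sox2 cKO library 1.

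The 8 genes other than Etnppl went into edgeR's quasi-likelihood fit of all 16137 genes, whose p-values were adjusted by Benjamini-Hochberg. Chkb and Pcyt2 rose in Sox2 cKO, 0 genes fell and 6 did not pass the adjusted threshold of 0.05. At an unadjusted p below 0.05 there was 1 lower gene, Sgpl1, which DESeq2 called as lower beside the same 2 higher genes (backgrounds of 15.2% lower and 12.9% higher, 28.1% in all). Across all tested genes 24.6% were called, 12.2% of them higher and 12.4% lower as shares of the genes tested, so 2 of 8 is near the background. An unadjusted p below 0.05 was found for 6391 of the 16137 genes. The groups did not overlap in CPM for Pcyt2, Sgpl1, Chkb and Pisd, 4 of 8 genes where 44.7% of all tested genes showed no overlap. The median log2 fold change of the 8 genes was 0.13, and that of all tested genes 0.02. With the length trend removed Chkb alone of the 8 was called, and the background was then 13.1%, with 6.99% lower and 6.08% higher. The number of calls depended on single libraries. It was 0 without Ctrl library 4 and 0 without Sox2 cKO library 1, where 3 genes each had an unadjusted p below 0.05 and DESeq2 called 1 gene each. Of all genes, 4758 of 16373 and 4945 of 16482 had such a p in these fits. DESeq2 called 1974 of 13828 and 2342 of 13370. The number of calls among the 8 genes was 1 without Ctrl library 6, 1 without Sox2 cKO library 3 and 4 without Ctrl library 2. The calls among all genes moved with it, from 3970 of 16137 to 26 of 16373 without Ctrl library 4, 8 of 16482 without Sox2 cKO library 1, 1082 of 16552 without Ctrl library 6, 1359 of 16345 without Sox2 cKO library 3 and 6119 of 16590 without Ctrl library 2.

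**Figure D2:**
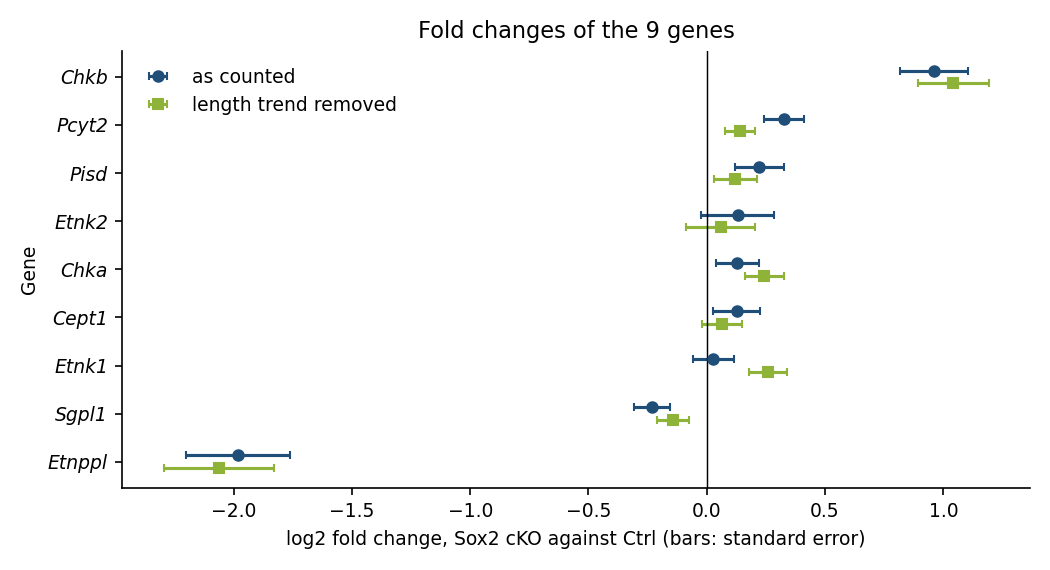
Log2 fold change of Sox2 cKO against Ctrl for the 9 genes on the horizontal axis, with standard errors, from the counts as deposited (circles) and with the gene length trend removed (squares). Etnppl lies near -2 in both, Chkb near 1 in both, and Pcyt2 moves from 0.33 to 0.14 when the trend is removed.

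Ethanolamine kinases phosphorylate ethanolamine and so make phosphoethanolamine. Etnk1 (chromosome 6, 143167221 to 143232307, plus strand) had 446, 434 and 409 CPM in Ctrl and 406, 466 and 443 CPM in Sox2 cKO. The groups overlapped, with a log2 fold change of 0.03 ± 0.09 (SE) and an edgeR adjusted p of 0.83. Removing the length trend moved it to 0.26 ± 0.08 with an adjusted p of 0.058, since its counted length of 6429 bases is among the longest. The related kinase Etnk2 (chromosome 1, 133363572 to 133380336, plus strand) was scarce. It had 6.33, 6.07 and 5.55 CPM in Ctrl and 7.51, 6.58 and 5.59 CPM in Sox2 cKO, again with overlap, and its log2 fold change was 0.13 ± 0.16 with an adjusted p of 0.56, or 0.06 ± 0.15 with 0.81 once the length trend was removed. Etnk2 made up between 3.08% and 3.22% of the summed FPKM of the kinase pair in Ctrl and between 2.87% and 4.16% in Sox2 cKO. The log2 ratio of Etnk2 to Etnk1 differed by 0.10 between the groups, with a two-sided exact permutation p of 0.8. Removing the length trend turned this difference to -0.21, with an exact permutation p of 0.2.

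Sgpl1 (chromosome 10, 61098642 to 61147703, minus strand), the endoplasmic reticulum lyase that ends sphingosine-1-phosphate signalling and yields phosphoethanolamine with a fatty aldehyde, had tightly spaced values. They were 41.4, 41.4 and 43.0 CPM in Ctrl and 35.8, 36.0 and 35.4 CPM in Sox2 cKO. Each Sox2 cKO library lay below each Ctrl library, and the mean in Sox2 cKO was 85.2% of that in Ctrl. The log2 fold change was -0.23 ± 0.08 with an edgeR adjusted p of 0.0501, on the edge of the threshold, and DESeq2 gave 0.0447. Without Ctrl library 2 edgeR gave an adjusted p of 0.0299, without each of the other libraries 0.116 to 0.150, and with upper quartile normalization 0.1004. With the length trend removed the log2 fold change was -0.14 with an adjusted p of 0.17.

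Pcyt2 (chromosome 11, 120610087 to 120617936, minus strand) encodes the CTP-dependent transferase that commits phosphoethanolamine to the CDP-ethanolamine route and sets its pace. Its values were 94.1, 84.6 and 92.8 CPM in Ctrl and 122.8, 110.3 and 106.9 CPM in Sox2 cKO. All Sox2 cKO libraries were higher than all Ctrl libraries, by 1.25-fold on average. The log2 fold change was 0.33 ± 0.08 with an edgeR adjusted p of 0.0234. Its counted length is 1881 bases, and the median log2 fold change of genes with 1709 to 2614 bases was 0.15. With the length trend removed the log2 fold change was 0.14 ± 0.06 and the call was lost, with an adjusted p of 0.16. It was lost as well without Ctrl library 4 (adjusted p = 0.115), Ctrl library 6 (0.0617), Sox2 cKO library 1 (0.0851) or Sox2 cKO library 3 (0.0622) in edgeR.

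Pcyt2 and Etnppl draw on the same substrate, and their ratio per length was read as a description because Etnppl was chosen for its change. Pcyt2 exceeded Etnppl 4.15-, 3.18- and 2.14-fold in FPKM in Ctrl. In Sox2 cKO it exceeded it 18.5-, 13.9- and 12.2-fold. The smallest ratio in Sox2 cKO was thus well above the largest in Ctrl. The size of these ratios depends on the lengths used, and a fixed length cancels when the groups are compared. The length trend of the fold changes does not cancel. Its removal moved the log2 fold change of Pcyt2 from 0.33 to 0.14 and that of Etnppl from -1.98 to -2.06.

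**Figure D3:**
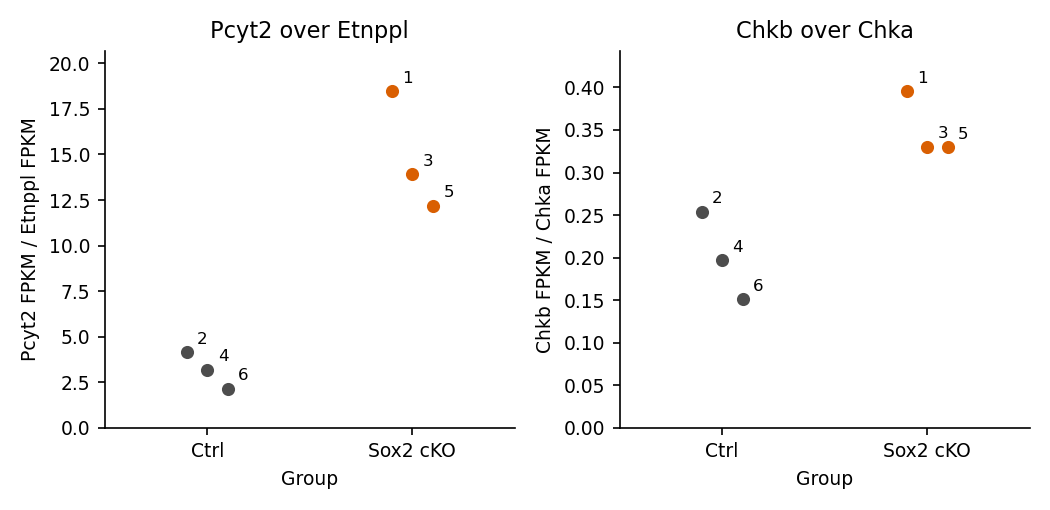
Ratios of FPKM in each library, labelled by library number, for Pcyt2 over Etnppl (left) and Chkb over Chka (right), with both axes starting at 0. Neither pair overlaps between the groups, and the Pcyt2 to Etnppl ratio reaches 18.5 in Sox2 cKO library 1.

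Cept1 (chromosome 3, 106502260 to 106547802, minus strand) joins CDP-ethanolamine or CDP-choline to diacylglycerol and so finishes the lipid. It had 41.7, 34.1 and 33.6 CPM in Ctrl and 39.7, 39.3 and 40.5 CPM in Sox2 cKO. Ctrl library 2 was the highest of the 6, and the remaining Ctrl pair lay below all Sox2 cKO libraries. The log2 fold change was 0.13 ± 0.10 with an edgeR adjusted p of 0.36. Without Ctrl library 2 it was 0.23 with an adjusted p of 0.0367 in edgeR and 0.103 in DESeq2. All libraries kept, the length-corrected value was 0.07 ± 0.08, with an adjusted p of 0.62. On the opposite strand the gene overlaps Dennd2d by 771 bases, with 4 to 17 counts a library, and Dram2 by 5 bases.

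Choline kinases phosphorylate choline and, less well, ethanolamine. Chka (chromosome 19, 3851773 to 3894369, plus strand) had 51.4, 51.1 and 62.3 CPM in Ctrl and 60.3, 58.9 and 61.0 CPM in Sox2 cKO. The groups overlapped through Ctrl library 6, and the log2 fold change was 0.13 ± 0.09 with an edgeR adjusted p of 0.32. Once the length trend was removed it was 0.24 ± 0.08 with an adjusted p of 0.075. Chkb (chromosome 15, 89426360 to 89429908, minus strand), whose protein is needed for muscle phospholipid in mice, gave 269, 224 and 180 counts in Ctrl libraries and 502, 527 and 492 counts in Sox2 cKO libraries. These were 12.1, 9.31 and 8.69 CPM against 22.0, 17.98 and 18.6 CPM, with no overlap and a mean 1.95 times that of Ctrl. The log2 fold change was 0.96 ± 0.14 with an edgeR adjusted p of 0.0121, and 1.04 ± 0.15 with an adjusted p of 0.014 once the length trend was removed. The adjusted p was 0.065 without Ctrl library 4 and 0.0656 without Sox2 cKO library 1 in edgeR. DESeq2 gave 3.51e-04 and 4.86e-04 for the same libraries.

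Relative to its sister enzyme, Chkb was the higher in Sox2 cKO in these libraries, in a test that could not pass the threshold. It made up 20.3%, 16.5% and 13.1% of the summed Chka and Chkb FPKM in Ctrl. In Sox2 cKO it made up 28.3%, 24.8% and 24.8%. The log2 ratio of Chkb to Chka differed by 0.84 between the groups, with a two-sided exact permutation p of 0.1, the smallest that 3 libraries against 3 allow, and 0.2 after adjustment over the 2 pairs of isoenzymes tested. Corrected for length, the difference was 0.80. The level of Chkb is uncertain, and so is its change, since reads from outside the gene could have entered both. The length used for its FPKM was 4296 bases, longer than the 3549 bases of the gene in GENCODE M21. A readthrough transcript with the next gene, Gm44502, covers 3337 bases of the locus on the same strand and is not a gene of the table.

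Pisd (chromosome 5, 32736301 to 32785646, minus strand) encodes the mitochondrial enzyme that makes phosphatidylethanolamine from phosphatidylserine without passing through phosphoethanolamine. It had 17.4, 15.1 and 17.1 CPM in Ctrl and 20.7, 18.8 and 18.4 CPM in Sox2 cKO. The groups did not overlap, yet the log2 fold change of 0.22 ± 0.10 did not pass the test, with an edgeR adjusted p of 0.13, nor did the 0.12 ± 0.09 found with the length trend removed (adjusted p = 0.39). Its values are uncertain because the copies Pisd-ps1 and Pisd-ps2 had up to 2246 and 468 counts in a library, and reads could have been shared with them. Gm20671 overlaps 48417 bases of it on the same strand and had 0 counts in all libraries.

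Other genes of the same routes were read as a list of 32, all of which were tested. Of these, 4 fell, 0 rose and 28 did not pass the edgeR adjusted threshold, beside backgrounds of 12.4% lower and 12.2% higher. DESeq2 likewise called 4 lower and 0 higher, beside 15.2% lower and 12.9% higher among all its genes. In edgeR 5 lower and 4 higher genes had an unadjusted p below 0.05, as did 6391 of all 16137 genes tested. The fold change was below zero for 21 of the 32, the median was -0.10, and 12 of 32 did not overlap between the groups, beside 44.7% of all tested genes. With the length trend removed 2 were called, both lower (background 6.99%), and the median was -0.03.

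The genes of the list that fell were Pcyt1a, Chpt1, Slc44a1 and S1pr1, a share near the background. Pcyt1a, the enzyme that forms CDP-choline, had 94.8, 101.8 and 103.6 CPM in Ctrl and 75.9, 82.7 and 80.7 CPM in Sox2 cKO. Its log2 fold change was -0.33 ± 0.07 with an edgeR adjusted p of 0.0168, which became 0.0514 with the length trend removed. Chpt1, the cholinephosphotransferase that finishes that route, had 138.7, 153.7 and 166.2 CPM in Ctrl and 98.9, 112.3 and 120.2 CPM in Sox2 cKO. Its log2 fold change was -0.47 ± 0.10 with an adjusted p of 0.0145 and, with the length trend removed, -0.34 with 0.0277. Slc44a1, a choline transporter that also carries ethanolamine, had 229.3, 242.7 and 245.8 CPM in Ctrl and 188.1, 186.5 and 211.7 CPM in Sox2 cKO. Its log2 fold change was -0.29 ± 0.08 with an adjusted p of 0.0325, which became 0.0755 with the length trend removed. S1pr1, a receptor for sphingosine-1-phosphate, had 100.9, 103.6 and 121.7 CPM in Ctrl and 80.4, 75.0 and 69.3 CPM in Sox2 cKO. It had the largest fold change of the called genes of the list, -0.54 ± 0.09 with an adjusted p of 0.0125, and -0.58 with 0.0171 when the length trend was removed. All 4 calls were lost in edgeR without Ctrl library 4 (adjusted p from 0.065 to 0.113) and without Sox2 cKO library 1 (from 0.0656 to 0.108). DESeq2 called 3 and 4 genes of the list without these libraries, all lower. Without Ctrl library 6 the calls of Pcyt1a (0.0634), Chpt1 (0.0502) and Slc44a1 (0.103) were lost, and without Sox2 cKO library 3 those of Pcyt1a (0.0506) and Slc44a1 (0.126). Without Ctrl library 2 the list had 10 calls, 6 of them lower.

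The other 28 genes of the list gave no call in edgeR. Of these, Pigg had an unadjusted p below 0.05 with a lower level, and Sphk1, Gde1, Gdpd3 and Pigf with a higher one. Their adjusted p lay between 0.0577 and 0.104. With the length trend removed, the log2 fold changes were -0.21 for Pigg, 0.44 for Sphk1, 0.01 for Gde1, 1.42 for Gdpd3 and 0.10 for Pigf. Gdpd3 overlapped between the groups, with 0.94 CPM in Sox2 cKO library 5 against 0.43 to 1.79 CPM in Ctrl. Selenoi, which makes phosphatidylethanolamine beside Cept1, had a log2 fold change of -0.14 ± 0.09, which turned to 0.09 ± 0.06 with the length trend removed. The phosphatidylserine synthases Ptdss1 and Ptdss2 stood at -0.15 ± 0.08 and -0.06 ± 0.10. Phykpl, the close relative of Etnppl that acts on phosphohydroxylysine, had 9.80 ± 1.72 CPM in Ctrl and 7.92 ± 0.62 in Sox2 cKO (SD, n = 3), with overlap and an adjusted p of 0.16. Phospho1, a phosphatase of phosphoethanolamine and phosphocholine, was nearly silent with 10 to 24 counts a library. Aldh2, the mitochondrial dehydrogenase for acetaldehyde, the product of Etnppl, stood at 0.14 ± 0.09 with an adjusted p of 0.27. These genes were named after their values were seen.

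**Figure D4:**
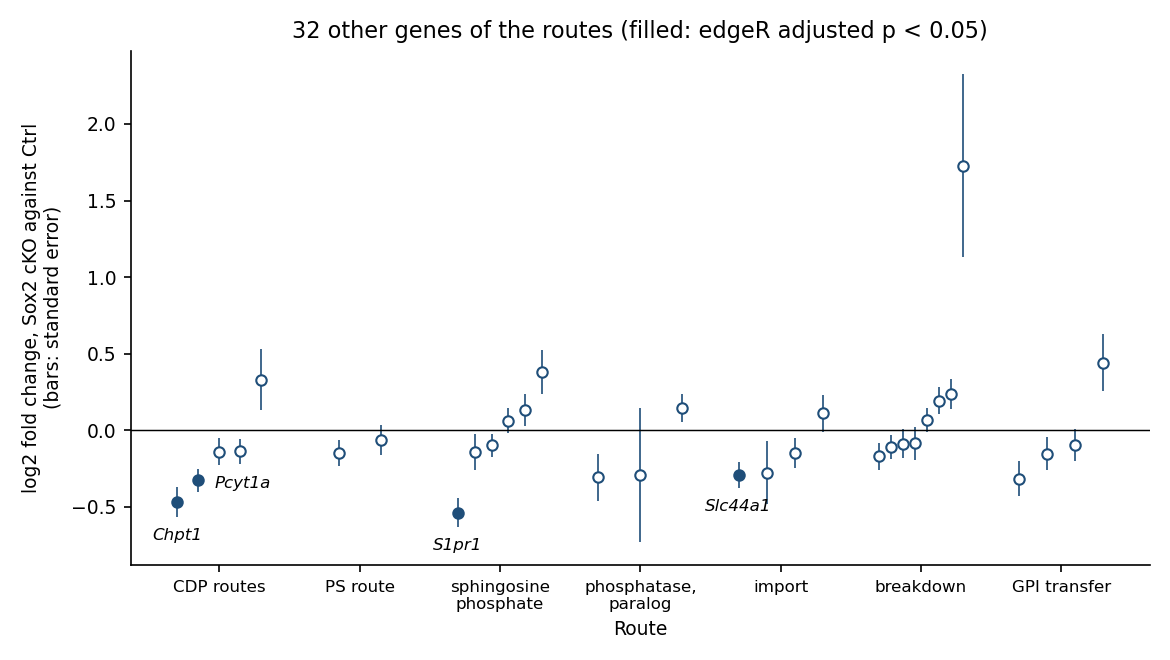
Log2 fold change of Sox2 cKO against Ctrl with standard errors for the 32 other genes, grouped by route along the horizontal axis (CDP, cytidine diphosphate; PS, phosphatidylserine; GPI, glycosylphosphatidylinositol), with filled points for genes past the edgeR adjusted threshold. The 4 filled points, Chpt1, Pcyt1a, S1pr1 and Slc44a1, lie below zero, and the highest open point, Gdpd3 at 1.73, has the largest standard error above zero.

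Astrocyte markers were read beside Etnppl. Of a list of 12, the edgeR test called 5 lower and 1 higher, and 8 of 12 did not overlap between the groups, beside 24.6% called and 44.7% without overlap among all tested genes. With the length trend removed Gfap and Acsbg1 were called lower and 0 markers higher, while 7 lower and 2 higher had an unadjusted p below 0.05. Among all 16137 tested genes 13.1% were then called, and 5236 had an unadjusted p below 0.05. In the main edgeR test the lower genes were Gfap, the glutamate transporters Slc1a2 and Slc1a3, Aldh1l1 and Acsbg1, and the higher gene was S100b. The summed level of the list was 9297 to 11181 CPM in Ctrl and 7337 to 7673 CPM in Sox2 cKO, its median log2 fold change was -0.23, and none of the 12 was at 0 in any library. Etnppl, as log2 CPM relative to its own Ctrl mean, stood at -2.15, -1.90 and -1.75 in Sox2 cKO. The median of the 12 markers on the same scale stood at -0.28, -0.31 and -0.21, and the lowest of them, Gfap, at -0.90, -1.24 and -1.16. Etnppl was lower than the lowest marker in each Sox2 cKO library. Because Etnppl was chosen for its fall and the markers were not, this is a description only. The part of astrocyte number or state in the level of Etnppl was not tested.

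**Figure D5:**
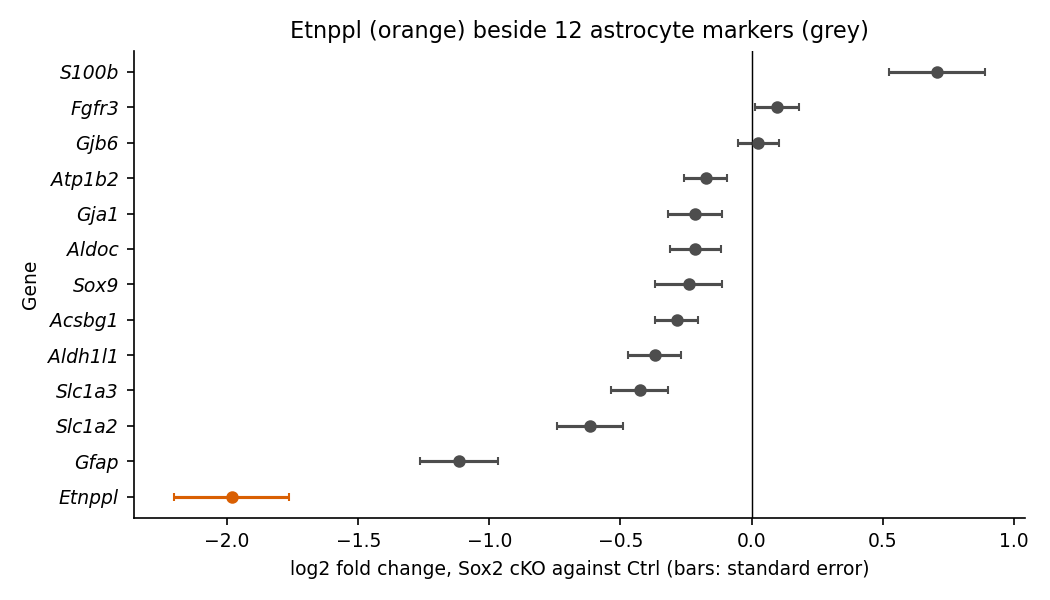
Log2 fold change of Sox2 cKO against Ctrl with standard errors for Etnppl (orange) and the 12 astrocyte markers (grey). Etnppl, chosen for its fall, lies at -1.98, below Gfap, the lowest marker, and S100b at 0.71 is the highest.

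Markers of other cells were read in the same way. All 5 oligodendrocyte precursor markers fell in edgeR, where 12.4% of all tested genes did. After length correction Gpr17 and C1ql1 were still called, and Vcan went from -0.43 to -0.00. The median log2 fold change of the 5 was -0.43 in the main edgeR test. Their summed level was 187 to 220.0 CPM in Ctrl and 124 to 160.5 CPM in Sox2 cKO. Of the 4 endothelial markers Ly6c1 rose, beside 12.2% of all tested genes called higher. It was called with the length trend removed as well (background 6.08% higher). The list summed to 128 to 154 CPM in Ctrl and to 214, 146 and 147 CPM in Sox2 cKO libraries 1, 3 and 5. The sums of libraries 3 and 5 thus lay within the Ctrl range. The 8 oligodendrocyte, 8 neuron, 6 microglia and 4 Schwann cell markers had 0 calls in edgeR, where 3, 2, 4 and 0 of them had an unadjusted p below 0.05 and DESeq2 called 4, 2, 3 and 0. Among all genes, 6391 of 16137 had an unadjusted p below 0.05 in edgeR, and DESeq2 called 28.1%. Length correction in edgeR called the oligodendrocyte markers Cnp, Mal and Cldn11 lower (adjusted p from 0.0245 to 0.0327) and the neuron marker Snap25 higher (0.0401), beside 13.1% of all tested genes called. Their part in the levels of the 9 genes was not tested. Calls among all marker lists numbered 12, and fell to 1 without Ctrl library 4, 4 without Ctrl library 6, 5 without Sox2 cKO library 3 and 0 without Sox2 cKO library 1, where DESeq2 called 15. They rose to 19 without Ctrl library 2.

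The genes whose pattern over the 6 libraries was most like that of Etnppl were found among 13322 tested genes with a mean of at least 50 counts, by the root mean square difference of log2 CPM after each gene was centred on its own mean. The nearest was Col23a1, which encodes a transmembrane collagen, at 0.30. Its CPM was 27.3, 31.7 and 36.4 in Ctrl and 10.9, 11.5 and 10.4 in Sox2 cKO. Kcnj16, an inwardly rectifying potassium channel subunit, followed at 0.34, with 56.6, 56.2 and 88.0 CPM in Ctrl and 24.4, 27.3 and 28.6 CPM in Sox2 cKO. Ctrl library 6 was the highest in Etnppl and in all 5 of the nearest genes. Sox2 cKO library 1 was the lowest in Etnppl, Kcnj16 and Gm26798, and not in the others. Flnc, an actin crosslinker, stood at 0.34, Lrig1, a receptor regulator with leucine-rich repeats, at 0.41, and the long noncoding RNA Gm26798 at 0.42. One percent of the genes compared stood below 0.62, and the median was 1.02. All 5 genes were lower in every Sox2 cKO library than in every Ctrl library. They were picked for likeness to Etnppl, itself chosen for its fall, so this is a description only. Of all tested genes, 44.7% did not overlap between the groups in either direction.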

How the data were processed

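Single-end libraries were made from poly(A) RNA of the whole spinal cord, 3 of Sox2 cKO and 3 of Ctrl. The authors aligned reads to mm10 with STAR 2.5, counted them per gene with HTSeq 0.6.1 and deposited these counts without normalization; the strand setting is not given in the sources used here. The authors also deposited FPKM, made from those counts, gene length and library total. Lengths recovered from both were whole (within 0.01 base) for all 24442 genes with counts. Columns carry numbers, not sample names. Groups follow the mouse numbers shown on the blot, and group means listed by the authors matched for 1999 of 1999 genes. Columns with values of other samples numbered 0. The replicates are separate mice. Names came from GENCODE M21, which matched 34490 identifiers.

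The main test was that of edgeR 4.0.16 in R 4.3.3 (filterByExpr, TMM, quasi-likelihood test, Benjamini-Hochberg over 16137 genes, threshold 0.05). On simulated data with 200 changed genes, 98.5% were recovered among 16150 genes tested, and 4.83% of calls were false. With a smooth length trend added to the simulated Sox2 cKO counts, 52.5% of calls were false without the correction and 3.52% with it. The simulation gave every gene the same dispersion and held no library that stood apart. Its rates therefore check the code and do not give the error rates of these data. Log2 CPM used a prior count of 2. To remove the length trend, each library's log2 CPM relative to the mean of the libraries was smoothed over length (lowess, span 0.3) and the curve entered edgeR as an offset. Alternatives were DESeq2 1.42.0, upper quartile normalization, no filter, at least 10 counts in every library, limma 3.58.1 on log2 FPKM (pseudocounts of 1 and 0.1, mean FPKM of at least 0.5) and leaving out each library. DESeq2 without each library, and the length correction without Sox2 cKO library 1, were added after seeing the data. The genes and lists were chosen with earlier results of these data known. Named are the 9 genes, list genes past the threshold, the 5 genes most like Etnppl, and Sox2. Any further gene was picked with its values in view.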

Additional observations from a re-analysis of the deposited data

How the results depend on the processing

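Chkb kept its direction in 20 of 20 alternatives, with log2 fold changes from 0.81 to 1.11, although its call was lost in 3. Etnppl lay between -2.18 and -1.63 in the same alternatives. This is a description only, because Etnppl was chosen for its fall in these counts. The calls among the 8 other genes numbered 2, and became 1 with the length trend removed, 0 when Sox2 cKO library 1 was left out as well, and 0 to 4 when each library was left out. The calls among the 32 route genes numbered 4, and became 2, 0 and 0 to 10 in the same order. The calls in the marker lists numbered 12, and became 21 in DESeq2, 0 with the length trend removed without Sox2 cKO library 1, and 0 to 23 when each library was left out. The log2 ratio of Etnk2 to Etnk1 turned from 0.10 to -0.21 with the length trend removed and lay between -0.059 and 0.22 when each library was left out. The fold change of Etnk1 was 0.03 in the main edgeR test. It lay between -0.035 and 0.082 when each library was left out, below zero without Ctrl library 6 or Sox2 cKO library 3. The fold change of Etnk2 turned to -0.035 with the length trend removed without Sox2 cKO library 1. The cause of these shifts was not tested.

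Calls among all genes numbered 3970. Leaving out a library gave 6119 without Ctrl library 2, 26 without Ctrl library 4, 1082 without Ctrl library 6, 8 without Sox2 cKO library 1, 1359 without Sox2 cKO library 3 and 2665 without Sox2 cKO library 5, and DESeq2 gave from 1974 to 5607. Removing the length trend gave 2109 calls, and 10 when Sox2 cKO library 1 was left out as well. The main edgeR test split into 2008 lower and 1962 higher genes. The split was 915 and 2670 with limma on log2(FPKM + 1), and 896 and 2614 with limma on log2(FPKM + 0.1). With the latter the median log2 fold change was 0.11 instead of 0.02. No paired analysis was possible, since the columns carry no replicate numbers and the sources used here give no pairing of Sox2 cKO with Ctrl mice. With 3 mice in each group, single-gene permutation tests could not pass the threshold.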
